A study of Mus musculus with 24 samples.

Results

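The Toll-like receptors and the proteins that work directly with them were followed through 16 h of B cell receptor stimulation in splenic B cells with and without NFATc1. The set holds 10 genes, the receptors Tlr1, Tlr2, Tlr3, Tlr4, Tlr6, Tlr7 and Tlr9, the receptor-like protein Cd180 with its partner Ly86, and the adaptor Myd88, out of 14318 genes tested. They were taken by family membership, as the probe sets whose sole gene symbol is one of these names, 16 probe sets in all, and each gene was represented by its brightest probe set. All 10 genes passed the filter on low signals, Tlr3 only through its arrays at 0 h.

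Toll-like receptors sense microbial lipids, proteins and nucleic acids. TLR1 and TLR6 pair with TLR2 at the cell surface to bind lipoproteins, TLR4 binds lipopolysaccharide with its partner MD-2 (Ly96), and TLR3, TLR7 and TLR9 read RNA or DNA inside endosomes. CD180, also called RP105, and its partner MD-1 (Ly86) form a related surface complex that modulates lipopolysaccharide responses of B cells. Of the Toll-like receptors named above, all except TLR3 signal through the adaptor MyD88. In B cells these receptors act beside the antigen receptor, so that a cell can read its antigen and a microbial signal together.

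The series holds 24 expression arrays of RNA from spleen B cells of C57BL/6 mice, mostly 6 to 8 weeks old, in 8 groups of 3 biological replicates. The 12 KO arrays come from mice whose Nfatc1 gene carries loxP sites around exon 3. It is cut by mb1-cre (Cd79a), so that the deletion starts early in the B lineage and not during stimulation. The 12 WT arrays come from control mice, whose Cre and floxed alleles are not given in the labels. Each genotype was sampled unstimulated, taken as 0 h, and after 3, 8 and 16 h with an antibody against IgM, and the cells were enriched with beads. No group was kept for those times without the antibody. In differences from 0 h, anti-IgM and time in culture thus cannot be told apart. The study asks what NFATc1 does in B cells after their receptor is engaged.

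Values are log2 of MAS5 signals as deposited, and differences are differences of log2 values, KO minus WT or stimulated minus 0 h. A gene was called when limma's moderated test over all 24 arrays gave an adjusted p (Benjamini-Hochberg over all genes tested) under 0.05. The filter level of an array is the 40th percentile of its own signals, which lay between 5.375 and 6.425. Levels of different genes come from different probes and are not set against each other. Values per array are given in the order of replicate number. In a bulk sample, fewer cells of a type and less RNA per cell cannot be told apart.

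Some arrays stood apart. All 4 WT arrays of replicate 2 had male-type signals, with Xist, the RNA that silences one X chromosome in females, between 6.17 and 6.62 against 13.27 to 14.54 on the other 20 arrays, and the Y-linked Eif2s3y between 10.96 and 11.5 against 0 to 5.13. KO replicate 2 at 8 h and at 16 h had the highest background, with 25th percentiles of 5.263 and 5.453 against 4.07 to 4.991 on the other arrays. The 5 probe sets of Nfatc1 overlapped between genotypes (1428479_at, for example, ranged from 12.06 to 13.95 in KO and from 11.65 to 13.31 in WT). Where they lie relative to the deleted exon is not given in the sources used here, so they check nothing about the labels. The B cell identity of the samples was checked on 7 B cell markers, which include Cd79a and Cd79b. Their summed signal was 90200 to 113000 in KO and 101000 to 113000 in WT at 0 h, and 38400 to 48300 in KO and 32800 to 39000 in WT at 16 h. All 7 fell by 16 h in both genotypes.

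Most of the surface receptors were lower after stimulation than at 0 h. In the main fit, which takes the 24 arrays as independent, none of the 10 genes differed between KO and WT past the threshold. With replicate number added to the fit as a fixed block, Tlr1 and Tlr7 did at 16 h, and Tlr7 also averaged over all times. With a random replicate block none did. Tlr1, Tlr2, Tlr4 and Ly86 were lower than at 0 h at every stimulated time in both genotypes, which 8.33% of all genes were. Myd88 rose by 16 h in both genotypes. In the main fit Cd180 and Tlr9 were not called at any time. With the fixed block Cd180 was called lower at 3 and 8 h in both genotypes. Tlr7 was lower at 16 h in WT cells by every probe set. In KO cells its brightest probe set was not called at 16 h, while another was called lower. Its change from 0 h did not differ between genotypes past the threshold.

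In KO cells, 5 of the 10 genes were lower at 3 h (21.7% of all genes), 6 at 8 h (14.4%) and 5 at 16 h (16.4%), and none was higher at 3 h (16.6% of all genes) or 8 h (17.3%), while Myd88 was higher at 16 h (19.4%). In WT cells, 6 of the 10 genes were lower at 3 h (21.3% of all genes), 5 at 8 h (15.7%) and 6 at 16 h (18.5%), and none was higher at 3 h (17% of all genes), while Myd88 was higher at 8 h (17.7%) and at 16 h (20.9%). The counts of lower genes include Tlr3, which passed the filter only through its 0 h arrays, at 3 and 8 h in KO and at 3, 8 and 16 h in WT. Between successive stimulated times, Ly86 was higher at 8 h than at 3 h in KO (13.2% of all genes) and in WT (10.3%), Tlr1 was higher at 16 h than at 8 h in KO (2.4%), and Tlr7 was lower at 16 h than at 8 h in WT (3.92%). The median difference of the 10 genes was -1.1, -0.81 and -1.04 at 3, 8 and 16 h in KO and -1.07, -0.76 and -1.07 in WT. The median over all genes was -0.11, 0.02 and 0.08 in KO and -0.14, -0.04 and 0.05 in WT.

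**Figure D1:**
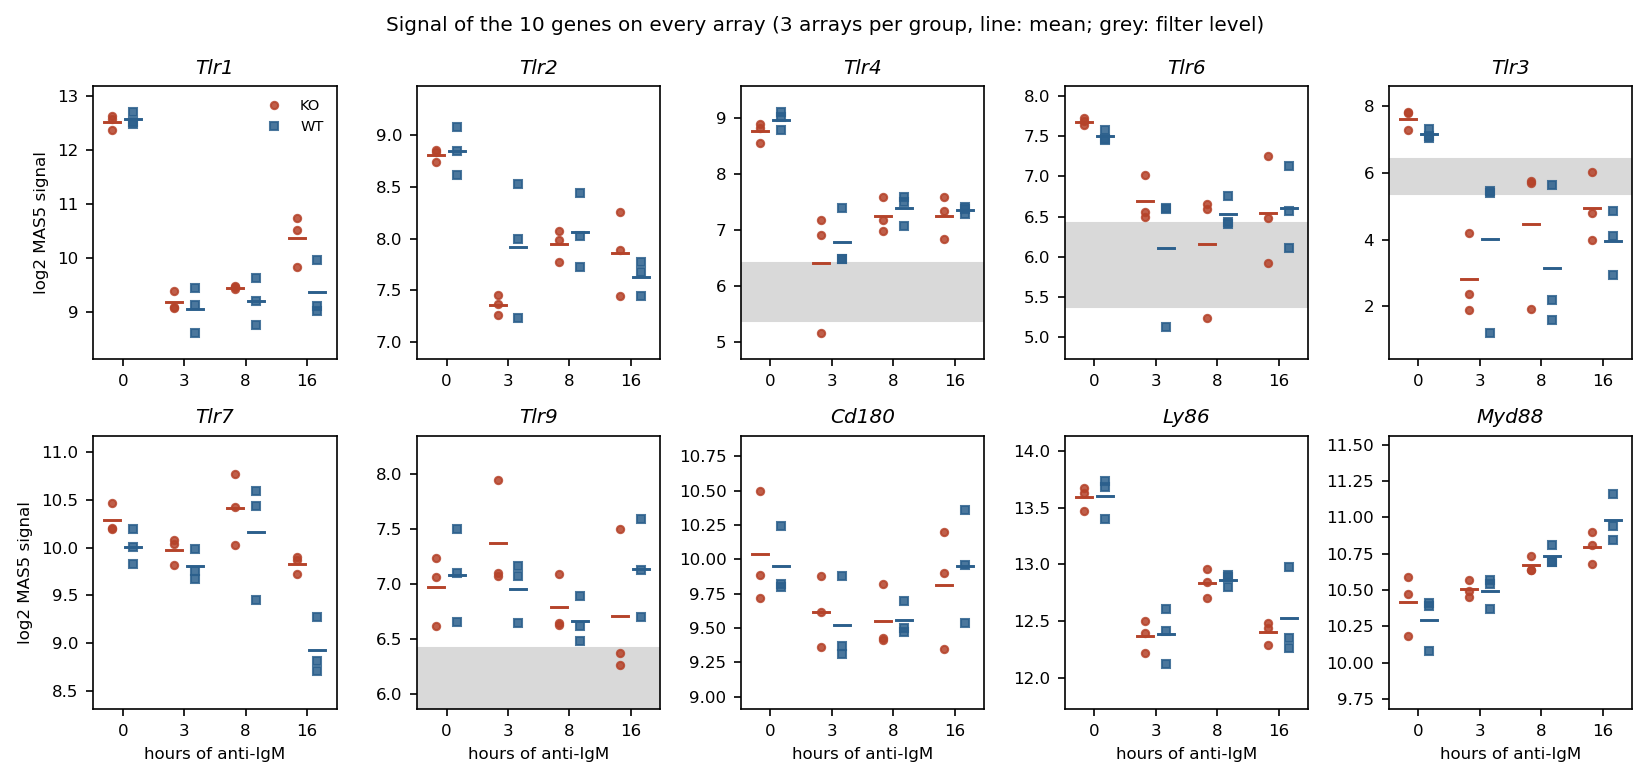
Log2 MAS5 signal (vertical axis, own scale in each panel) of the 10 genes on every array against hours of anti-IgM (horizontal axis), KO as circles left of WT as squares, with the mean of 3 arrays as a line and the range of the arrays' filter levels in grey. Tlr1 stands between 12.36 and 12.69 on the 6 arrays at 0 h and between 8.62 and 10.74 on the 18 stimulated arrays, and Tlr3 drops into or under the grey band after stimulation.

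Tlr1, the partner of TLR2 for triacylated lipoproteins, had the deepest fall among the genes that stayed above the filter level on all 24 arrays. In KO cells the arrays read 12.63, 12.57 and 12.36 at 0 h, 9.09, 9.08 and 9.40 at 3 h, 9.46, 9.48 and 9.43 at 8 h, and 10.52, 10.74 and 9.84 at 16 h. In WT cells they read 12.51, 12.69 and 12.48 at 0 h, 8.62, 9.14 and 9.44 at 3 h, 8.76, 9.21 and 9.63 at 8 h, and 9.97, 9.12 and 9.02 at 16 h. No stimulated array of either genotype overlapped with the arrays at 0 h.

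The fall of Tlr1 at 3 h was -3.33 in KO (SE 0.246, 10.1-fold, limma adjusted p = 2.04e-10) and -3.49 in WT (SE 0.246, 11.3-fold, limma adjusted p = 9.49e-11). At that time it ranked 80 among the deepest falls of 14318 genes in KO and 59 in WT. At 8 h the difference was -3.06 in KO and -3.36 in WT. At 16 h Tlr1 was -2.15 from its level at 0 h in KO (4.44-fold, limma adjusted p = 1.87e-07) and -3.19 in WT (9.12-fold, limma adjusted p = 2.71e-10). Between 8 and 16 h Tlr1 rose again in KO cells, by 0.91 (SE 0.246, limma adjusted p = 0.0328), while the difference in WT was 0.17 (limma adjusted p = 0.784). The changes of KO and WT between these times were not tested against each other. This rise in KO was called in 26 of 35 alternatives. It was not called without KO replicate 1 (0.84, limma adjusted p = 0.125) or replicate 2 (0.73, limma adjusted p = 0.162) at 16 h, nor without any of the 3 KO arrays at 8 h (0.90 to 0.92). Between 3 and 8 h the test was not passed in either genotype, though the KO arrays at 8 h all lay above those at 3 h (0.27, limma adjusted p = 0.539), while the WT arrays overlapped (0.13, limma adjusted p = 0.81).

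The promoter of Tlr1 is shown because it belongs to the gene with the deepest well-measured fall, with those of Ly86, which fell at every time, of Myd88, which rose, and of Tlr9, which was not called. Each is the 250 bases before a RefSeq transcription start (GRCm38.p6), on the strand of the gene, and 8 of the 10 genes had such an entry, 11 starts in all. Capitals mark matches to the core bases that NFAT proteins bind, GGAAA (55.6% of 32851 promoters held it on either strand), to the octamer ATGCAAAT bound by the B cell factors OCT1 and OCT2 (1.6%), to GAGGAAGT, a site of the myeloid and B cell factor PU.1 (2.44%), and to the interferon response element core (2.98%), which interferon regulatory factors bind.
Tlr1, chr5:64933559-64933808, minus strand: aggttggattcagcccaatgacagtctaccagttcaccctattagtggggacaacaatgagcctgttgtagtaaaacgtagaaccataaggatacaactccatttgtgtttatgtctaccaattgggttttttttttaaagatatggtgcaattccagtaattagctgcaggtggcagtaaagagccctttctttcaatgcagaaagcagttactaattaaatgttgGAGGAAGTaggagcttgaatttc
Ly86, chr13:37345095-37345344, plus strand: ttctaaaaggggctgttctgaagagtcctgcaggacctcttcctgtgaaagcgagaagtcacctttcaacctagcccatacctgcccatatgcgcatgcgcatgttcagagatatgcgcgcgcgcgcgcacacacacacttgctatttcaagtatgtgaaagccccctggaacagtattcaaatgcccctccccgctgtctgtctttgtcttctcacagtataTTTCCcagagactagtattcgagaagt
Myd88, chr9:119340019-119340268, minus strand: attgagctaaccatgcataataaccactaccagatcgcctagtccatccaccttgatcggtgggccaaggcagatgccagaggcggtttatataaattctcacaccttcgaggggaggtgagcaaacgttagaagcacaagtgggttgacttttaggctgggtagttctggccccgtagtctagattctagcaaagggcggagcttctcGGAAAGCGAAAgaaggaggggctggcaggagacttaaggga
Tlr9, chr9:106222348-106222597, plus strand: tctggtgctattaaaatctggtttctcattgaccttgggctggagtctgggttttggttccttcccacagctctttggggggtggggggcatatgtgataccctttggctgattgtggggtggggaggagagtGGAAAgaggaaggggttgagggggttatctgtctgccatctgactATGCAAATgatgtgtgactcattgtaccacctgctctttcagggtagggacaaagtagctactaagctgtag
Tlr1 had 1 match to the PU.1 letters and none to GGAAA in this window, and 1 GGAAA at its other start. Ly86 had 1 GGAAA, read on the opposite strand as TTTCC. Myd88 had 1 GGAAA that overlaps its 1 match to the interferon response element core. Tlr9 had 1 GGAAA and 1 octamer. Among the promoters not printed, that of Tlr3 had 5 matches to GGAAA, both starts of Cd180 had 2, that of Tlr2 had none of the 4 motifs, and 1 start of Tlr6 had 2 matches to the interferon response element core. Tlr4 and Tlr7 are named only. A match describes letters and no bound site.

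Tlr2, the common partner of TLR1 and TLR6, fell by about 1 log2 unit. In KO cells the arrays read 8.86, 8.74 and 8.84 at 0 h, 7.37, 7.26 and 7.45 at 3 h, 7.77, 7.99 and 8.07 at 8 h, and 7.89, 7.44 and 8.26 at 16 h. In WT cells they read 8.62, 8.85 and 9.08 at 0 h, 7.23, 8.53 and 8.00 at 3 h, 7.72, 8.44 and 8.03 at 8 h, and 7.68, 7.44 and 7.77 at 16 h. Every stimulated group lay below the arrays at 0 h of its own genotype. The difference at 3 h was -1.45 in KO (SE 0.262, limma adjusted p = 8.63e-05) and -0.93 in WT (SE 0.262, limma adjusted p = 0.00628), where WT replicate 2 read highest. At 16 h it was -0.95 in KO (limma adjusted p = 0.00581) and -1.22 in WT (limma adjusted p = 0.000518). With arrays scaled to a common median the calls at 3 h in WT (-0.69, limma adjusted p = 0.108) and at 8 h in both genotypes (-0.83 in KO, limma adjusted p = 0.0611, and -0.63 in WT, limma adjusted p = 0.161) were lost. Without WT replicate 1 at 3 h the WT difference at 3 h was -0.59 (limma adjusted p = 0.0761).

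Tlr6, the partner of TLR2 for diacylated lipoproteins and the neighbour of Tlr1 in the genome, was low throughout. In KO cells it ranged from 7.63 to 7.72 at 0 h and from 5.24 to 7.25 after stimulation. In WT cells it ranged from 7.45 to 7.58 at 0 h and from 5.13 to 7.13 after stimulation. All stimulated arrays lay below those at 0 h of the same genotype, but the spread was wide and the test was passed at 8 h (-1.51, SE 0.423, limma adjusted p = 0.00725) and 16 h (-1.12, limma adjusted p = 0.041) in KO and at 3 h (-1.39, SE 0.423, limma adjusted p = 0.011) in WT. The KO call at 8 h was lost without KO replicate 1 at 8 h (-1.06, limma adjusted p = 0.0743), the KO call at 16 h was kept in 29 of 36 alternatives, and the WT call was lost without WT replicate 1 at 3 h (-0.90, limma adjusted p = 0.108).

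Tlr4, the lipopolysaccharide receptor, fell in both genotypes at all 3 stimulated times. In KO cells the arrays read 8.56, 8.83 and 8.90 at 0 h, 5.17, 6.92 and 7.18 at 3 h, 7.19, 6.98 and 7.60 at 8 h, and 6.85, 7.59 and 7.34 at 16 h. In WT cells they read 8.79, 9.10 and 9.02 at 0 h, 6.48, 6.48 and 7.40 at 3 h, 7.51, 7.08 and 7.60 at 8 h, and 7.41, 7.37 and 7.29 at 16 h. The arrays at 0 h stood above all others in both genotypes. The difference at 3 h was -2.34 in KO (SE 0.371, 5.07-fold, limma adjusted p = 1.65e-05) and -2.18 in WT (SE 0.371, 4.54-fold, limma adjusted p = 3.98e-05). KO replicate 1 at 3 h, at 5.17, was the single array under its filter level, and without it the KO difference at 3 h was -1.71 (limma adjusted p = 7.39e-05). At 16 h it was -1.50 in KO (2.83-fold, limma adjusted p = 0.00226) and -1.61 in WT (3.06-fold, limma adjusted p = 0.00102), and these calls held in all 36 alternatives. Another probe set of Tlr4 over the filter, 1418162_at, gave -1.52 at 16 h in both genotypes (limma adjusted p = 0.0102 in KO and 0.00896 in WT, over 26671 probe sets). The remaining one over the filter, 1442827_at, was above the level on 6 arrays and gave -1.01 in KO (limma adjusted p = 0.173) and -1.62 in WT (limma adjusted p = 0.0223).

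Macrophages also express Tlr2 and Tlr4, so their markers stand beside these falls. Of 10 macrophage and monocyte markers, 8 passed the filter. The summed signal of the list was 4320 to 8980 in KO and 4690 to 11600 in WT at 0 h, and 3340 to 9730 in KO and 2150 to 4670 in WT at 16 h. Lyz2, the lysozyme of myeloid cells, fell by 3 h in KO (-1.92, limma adjusted p = 0.0205) and in WT (-1.70, limma adjusted p = 0.0402), and by 8 h in KO (-1.85, limma adjusted p = 0.0304) and in WT (-2.35, limma adjusted p = 0.00564). At 3 h 1 of the 8 was lower in each genotype (21.7% of all genes in KO and 21.3% in WT). At 8 h 2 of the 8 were lower (14.4% of all genes in KO and 15.7% in WT), with Itgam the other in KO and C1qb in WT. Cd14 was higher in KO at 3 h (16.6% of all genes) and Adgre1 in KO at 8 h (17.3%). These small counts are to be read against those shares. The median difference of the 8 was -0.69 at 3 h and -0.99 at 8 h in KO, and -0.97 and -0.93 in WT. At 16 h Adgre1 was higher in KO (2.15, limma adjusted p = 1.57e-07) and in WT (0.98, limma adjusted p = 0.00202), and Lyz2 was lower in WT (-1.64, limma adjusted p = 0.0459) and differed by -0.88 in KO (limma adjusted p = 0.326). C1qa and C1qc, which mark tissue macrophages, were each above the filter level on 1 of 24 arrays and none of the 10 was at 0 on all arrays. Neutrophil markers were measured too and did not all move alike. Mpo averaged 9.88 in KO and 9.49 in WT at 0 h, and 8.09 and 7.03 at 16 h. S100a8 averaged 8.54 in KO and 10.17 in WT at 0 h, and 8.95 and 8.83 at 16 h. The part of macrophages, or of other myeloid cells such as neutrophils, in the falls of Tlr2 and Tlr4 was not tested.

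Tlr3, the receptor for double-stranded RNA, was measured well in unstimulated cells and hardly elsewhere. Its brightest probe set, 1422782_s_at, read 7.82, 7.80 and 7.28 in KO and 7.31, 7.05 and 7.12 in WT at 0 h. After stimulation it ranged from 1.89 to 6.04 in KO and from 1.20 to 5.64 in WT, with all 6 group means under the filter level, so that the size of the fall has only a bound. With signals under the level raised to it, Tlr3 was at least 4.05-fold, 3.5-fold and 3.44-fold lower at 3, 8 and 16 h in KO, and at least 2.96-fold, 2.8-fold and 2.49-fold lower in WT. This probe set was above the filter level on all 3 arrays at 0 h and on 1 array at 8 h in each genotype. It thus passed the filter only through its 0 h arrays, which favours a fall from 0 h. With that limit, the test was passed at 3 and 8 h in KO (limma adjusted p = 0.0018 and 0.0412), with 0.079 at 16 h, and at 3, 8 and 16 h in WT (limma adjusted p = 0.0365, 0.00899 and 0.032). These calls leaned on single arrays. The KO call at 8 h was kept in 30 of 35 alternatives and lost without any one of the 3 KO arrays at 0 h (limma adjusted p = 0.0672 to 0.1) or without KO replicate 3 at 8 h (-1.90, limma adjusted p = 0.263), against -3.17 with all arrays. The WT call at 3 h was kept in 28 of 35 and lost without any one WT array at 0 h (limma adjusted p = 0.0733 to 0.0863) or WT replicate 2 at 3 h (-1.73, limma adjusted p = 0.272). The WT call at 8 h was lost without WT replicate 2 at 8 h (limma adjusted p = 0.0601), and that at 16 h without any one WT array at 0 h (limma adjusted p = 0.0643 to 0.0781), WT replicate 1 (0.122) or WT replicate 3 (0.0599) at 16 h. Without the 4 WT arrays of replicate 2 the calls in WT at 3 h (limma adjusted p = 0.32) and 8 h (limma adjusted p = 0.0583) were lost. The other probe set of Tlr3, 1422781_at, was called lower at 3 h in KO (limma adjusted p = 0.00181) and at 3 and 16 h in WT (limma adjusted p = 0.0137 and 0.0012), and not at 8 h (limma adjusted p = 0.156 in KO and 0.0788 in WT).

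**Figure D2:**
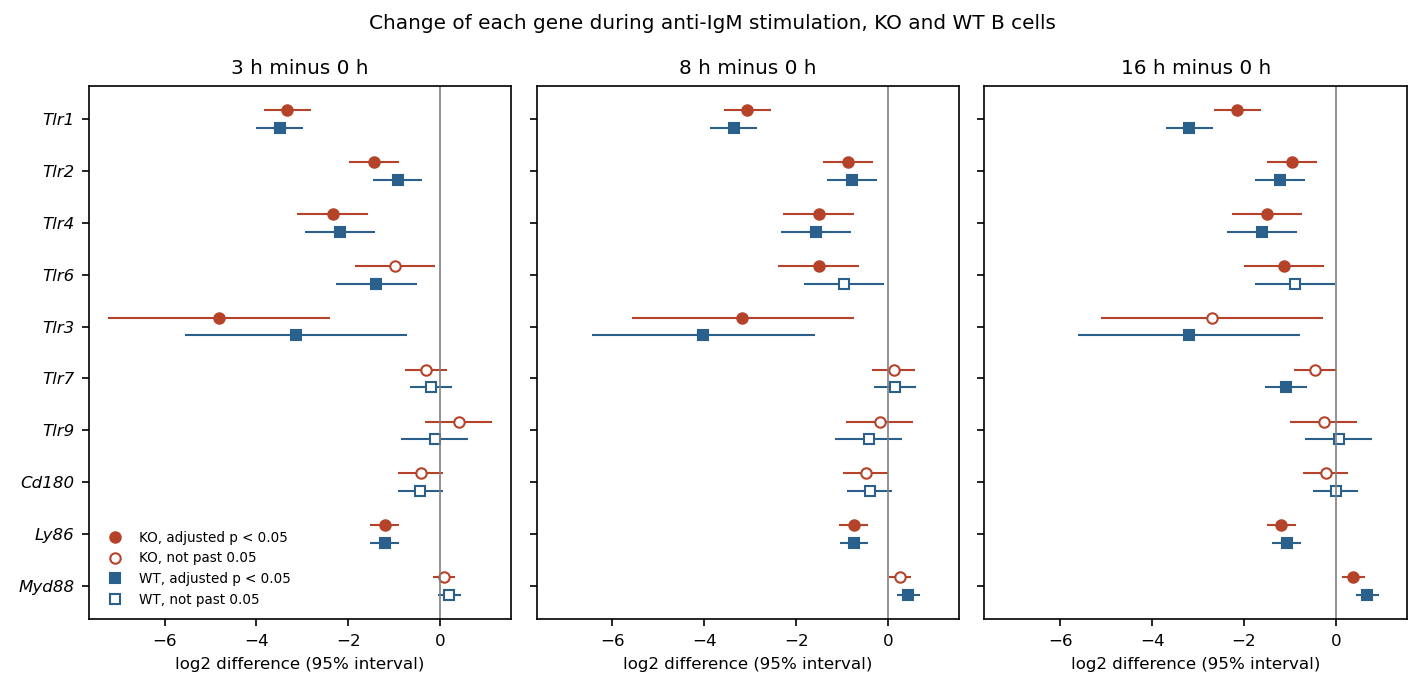
Log2 difference of each gene at 3, 8 and 16 h from 0 h (horizontal axis, with 95% intervals), KO as circles above WT as squares, filled where the adjusted p was under 0.05. Tlr1 lies between -3.49 and -2.15, Ly86 between -1.21 and -0.74, and Cd180 and Tlr9 have open symbols at all 3 times.

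Tlr7, the endosomal receptor for single-stranded RNA, is encoded on the X chromosome. In KO cells its brightest probe set, 1422010_at, read 10.20, 10.21 and 10.47 at 0 h, 10.04, 10.08 and 9.82 at 3 h, 10.77, 10.03 and 10.43 at 8 h, and 9.90, 9.72 and 9.87 at 16 h. In WT cells it read 10.01, 9.83 and 10.19 at 0 h, 9.99, 9.67 and 9.76 at 3 h, 10.59, 9.45 and 10.44 at 8 h, and 8.71, 8.81 and 9.27 at 16 h. The 3 WT arrays at 16 h were the lowest of all 24, and at 0 h the KO arrays lay just above the WT arrays (0.28, limma adjusted p = 1). WT replicate 2, the male-type one, read lowest of its group at 0, 3 and 8 h and in the middle at 16 h.

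In WT cells Tlr7 fell by 16 h, to 8.93 against 10.01 at 0 h (-1.08, SE 0.224, 2.11-fold, limma adjusted p = 0.000352), and from its level at 8 h the difference was -1.23 (limma adjusted p = 0.000971). In KO cells the difference at 16 h was -0.46 (95% interval -0.92 to 0.00, limma adjusted p = 0.118), and it passed the threshold in 3 alternatives that leave the difference as it is and change the estimate of the spread, among them without the 4 WT arrays of replicate 2 (limma adjusted p = 0.0448). At 3 and 8 h this probe set was not called in either genotype. Of the other 2 Tlr7 probe sets, 1449640_at was called lower at 3 h in KO (-1.04, limma adjusted p = 0.0174) and gave -0.69 in WT (limma adjusted p = 0.119), and neither was called at 8 h. Both were also lower at 16 h. Probe set 1449640_at gave -0.86 in KO (limma adjusted p = 0.0507) and -1.53 in WT (limma adjusted p = 0.000685), and 1419848_x_at gave -1.20 in KO (limma adjusted p = 0.0107) and -1.38 in WT (limma adjusted p = 0.00327), over 26671 probe sets. The KO fall at 16 h was thus called by 1 of 3 probe sets and the WT fall by all 3.

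Tlr9, the receptor for unmethylated CpG DNA, stayed near the filter level and was not called in any comparison. Its probe set ranged from 6.26 to 7.95 in KO and from 6.48 to 7.59 in WT, above the filter level on all 24 arrays. The difference at 16 h from 0 h was -0.26 in KO (95% interval -0.99 to 0.46) and 0.06 in WT (95% interval -0.67 to 0.79), wide enough to hold changes in either direction.

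Ly86 and Cd180 make 1 complex at the protein level, and Ly86 had the larger differences from 0 h on the log2 scale. Ly86 read 13.63, 13.47 and 13.67 at 0 h, 12.40, 12.50 and 12.22 at 3 h, 12.96, 12.85 and 12.71 at 8 h, and 12.44, 12.49 and 12.29 at 16 h in KO cells. In WT cells it read 13.40, 13.68 and 13.73 at 0 h, 12.42, 12.61 and 12.13 at 3 h, 12.89, 12.91 and 12.80 at 8 h, and 12.27, 12.98 and 12.35 at 16 h. The arrays at 0 h stood above all others and the 3 h arrays lay below the 8 h arrays in both genotypes. The difference at 3 h was -1.21 in KO (SE 0.151, 2.32-fold, limma adjusted p = 5.7e-07) and -1.21 in WT (SE 0.151, 2.32-fold, limma adjusted p = 5.58e-07). Ly86 then rose again by 8 h, by 0.46 in KO and by 0.48 in WT (limma adjusted p = 0.0331 for each), each called in 28 of 35 alternatives and not with arrays scaled to a common median (limma adjusted p = 0.305 in KO and 0.271 in WT), nor without KO replicate 3 (0.39, limma adjusted p = 0.133) or WT replicate 3 (0.35, limma adjusted p = 0.18) at 3 h. At 16 h it was -1.19 from 0 h in KO (limma adjusted p = 8.55e-07) and -1.07 in WT (limma adjusted p = 2.92e-06).

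Cd180 ranged from 9.72 to 10.50 in KO and from 9.80 to 10.24 in WT at 0 h, and from 9.35 to 10.20 in KO and from 9.54 to 10.36 in WT at 16 h. Its differences from 0 h at 3 and 8 h were -0.42 and -0.49 in KO (limma adjusted p = 0.184 and 0.132) and -0.43 and -0.40 in WT (limma adjusted p = 0.165 and 0.226), and these did not pass the test in the main fit. With a fixed replicate block they did (limma adjusted p = 0.00807 and 0.00298 in KO, and 0.00606 and 0.0127 in WT). With a random replicate block only that at 8 h in KO did. At 16 h the difference was -0.22 in KO (95% interval -0.71 to 0.27) and 0.00 in WT (95% interval -0.49 to 0.49). The difference between Cd180 and Ly86 was not tested.

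Myd88, the adaptor through which nearly the whole family signals, was the single gene of the 10 to rise above its level at 0 h. In KO cells the arrays read 10.59, 10.47 and 10.18 at 0 h, 10.49, 10.45 and 10.57 at 3 h, 10.73, 10.64 and 10.64 at 8 h, and 10.81, 10.90 and 10.68 at 16 h. In WT cells they read 10.41, 10.39 and 10.08 at 0 h, 10.54, 10.37 and 10.57 at 3 h, 10.69, 10.81 and 10.69 at 8 h, and 10.84, 11.16 and 10.94 at 16 h. The 16 h arrays lay above those at 0 h in both genotypes. The difference at 16 h was 0.38 in KO (SE 0.12, 1.3-fold, limma adjusted p = 0.0141) and 0.68 in WT (SE 0.12, 1.61-fold, limma adjusted p = 5.13e-05), and at 8 h 0.26 in KO (limma adjusted p = 0.112) and 0.44 in WT (limma adjusted p = 0.00575). The KO call at 16 h was lost in 5 of 36 alternatives, among them without KO replicate 3 at 0 h (0.27, limma adjusted p = 0.112) and without KO replicate 2 at 16 h (0.33, limma adjusted p = 0.0624), and the WT call at 8 h without WT replicate 3 at 0 h (0.33, limma adjusted p = 0.0528). The WT call at 16 h held in all 36.

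Between genotypes, the main fit called 0 of the 10 genes averaged over the 4 times (1.21% of all genes were called). The count was also 0 at each single time, where it called 0.0349% of all genes in unstimulated cells, 0.0559% at 3 h, 0.0978% at 8 h and 0.615% at 16 h. At an unadjusted p under 0.05 the counts were 2, 0, 1, 0 and 2, where 9.65%, 3.49%, 3.71%, 5.43% and 7.08% of all genes reached that p. The F-test of whether the time courses differ between genotypes called 0 of the 10 (0.014% of all genes, 1 of the 10 at an unadjusted p under 0.05, against 2.8% of all genes). Set against 0 h, the change did not differ between KO and WT past the threshold for any of the 10 at 3 h (0% of all genes), 8 h (0%) or 16 h (0.021%), and at an unadjusted p under 0.05 for 0, 0 and 1 (2.3%, 3.11% and 4.36% of all genes). At 0 h the 95% intervals of the KO minus WT difference were narrowest for Myd88 (-0.13 to 0.37) and Ly86 (-0.32 to 0.30) and widest for Tlr3 (-1.95 to 2.89), and that of Tlr1 ran from -0.55 to 0.47.

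**Figure D3:**
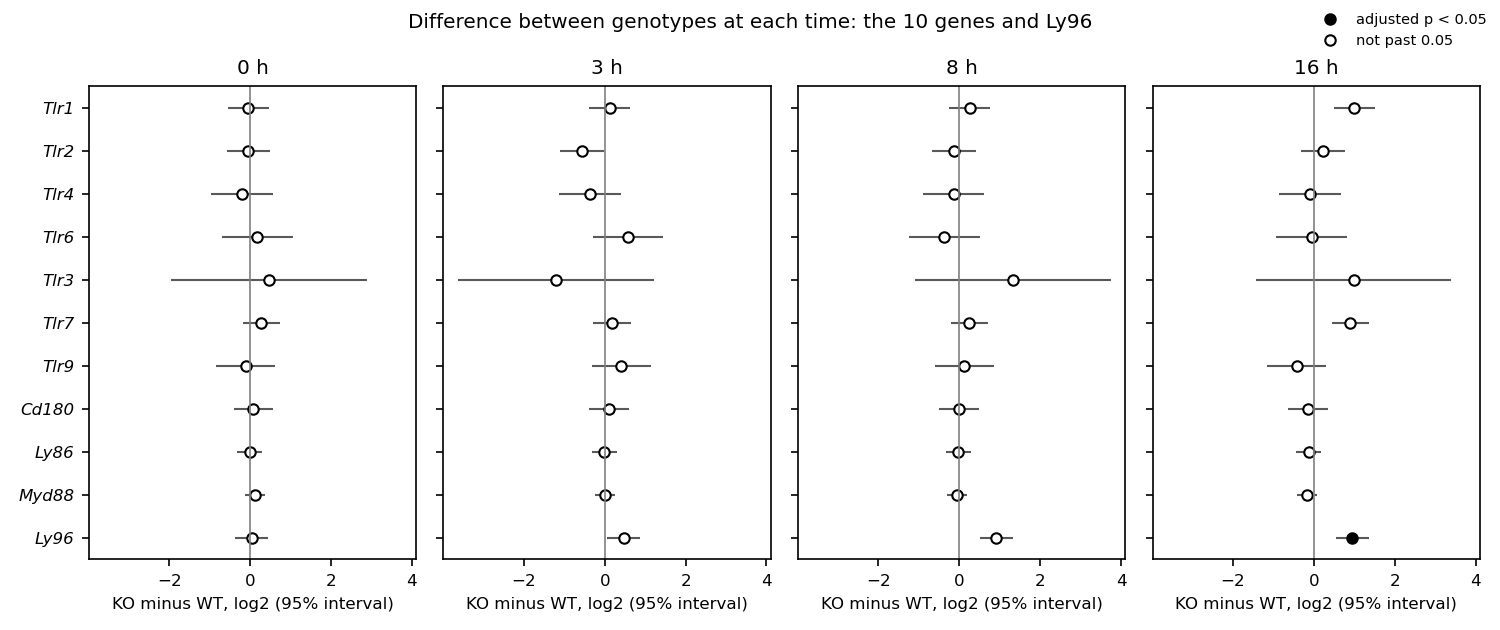
Log2 difference KO minus WT (horizontal axis, with 95% intervals) of the 10 genes and of Ly96 at 0, 3, 8 and 16 h, filled where the adjusted p was under 0.05. Tlr1 and Tlr7 stand at 1.00 and 0.90 at 16 h with open symbols, and Ly96 at 16 h (0.95) has a filled one.

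The largest genotype differences among the well-measured genes were those of Tlr1 and Tlr7 at 16 h. Tlr1 averaged 10.37 ± 0.468 in KO and 9.37 ± 0.522 in WT (SD, n = 3 each), a difference of 1.00 (SE 0.246, 95% interval 0.49 to 1.51, limma adjusted p = 0.0706), and 1 WT array at 9.97 lay above the lowest KO array at 9.84. Tlr7 averaged 9.83 ± 0.0927 in KO and 8.93 ± 0.302 in WT (SD, n = 3 each), a difference of 0.90 (SE 0.224, 95% interval 0.44 to 1.36, limma adjusted p = 0.0737), and the groups did not overlap. Neither passed the threshold in the main fit. With a fixed replicate block both did (limma adjusted p = 0.0427 for Tlr1 and 0.0127 for Tlr7). With a random replicate block neither did (limma adjusted p = 0.0955 for Tlr1 and 0.0583 for Tlr7). Without the 4 male-type WT arrays the difference was 0.87 for Tlr1 (limma adjusted p = 0.505) and 0.84 for Tlr7 (limma adjusted p = 0.0868), and without the 2 arrays of highest background it was 0.81 for Tlr1 (limma adjusted p = 0.381) and 0.95 for Tlr7 (limma adjusted p = 0.131).

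Single arrays moved both over the threshold. Tlr1 was called without KO replicate 3 at 16 h (1.26, limma adjusted p = 0.0173), without WT replicate 1 at 16 h (1.30, limma adjusted p = 0.0108), and without WT replicate 1 at 3 h or WT replicate 3 at 8 h (1.00 each). Tlr7 was called without WT replicate 3 at 16 h (1.07, limma adjusted p = 0.0481) and without WT replicate 2 at 8 h (0.90, limma adjusted p = 0.0085). The other probe sets of Tlr7 gave 0.78 (1449640_at, limma adjusted p = 0.681) and 0.27 (1419848_x_at, limma adjusted p = 1) at 16 h. The difference between genotypes in the change from 0 h to 16 h was 1.04 for Tlr1 (SE 0.348, limma adjusted p = 0.787) and 0.62 for Tlr7 (SE 0.316, limma adjusted p = 1). These comparisons share the arrays at 0 h and 16 h with those above.

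Marginal zone B cells respond strongly to Toll-like receptor ligands, and some of their markers differed between genotypes. Averaged over the 4 times, where 1.21% of all genes were called, Cr2, S1pr3 and Cd36 of 8 marginal zone markers were higher in KO (0.78, 0.50 and 1.12, limma adjusted p = 9.3e-06, 0.0239 and 5.32e-05). These p-values take the arrays as independent. At 16 h, where 0.615% of all genes were called, Cr2 and Cd36 were higher in KO (1.56 and 1.63, limma adjusted p = 3.03e-05 and 0.00341). The other markers were not called, and 4 of them were level or lower in KO at 16 h, Mzb1 by -0.61 (limma adjusted p = 0.0712), Plxnd1 by -0.42, Notch2 by -0.06 and Dtx1 by -0.02. The median KO minus WT difference of the 8 was 0.11 averaged over the 4 times and 0.16 at 16 h. The summed signal of the list was 36300 to 47400 in KO and 31900 to 34600 in WT at 0 h, and 11900 to 13100 in KO and 11700 to 12200 in WT at 16 h. Among the other B cell lists at 16 h, 1 of 7 general and 1 of 4 follicular markers were higher in KO and 1 of 6 B1 markers was lower (0.615% of all genes were called in either direction). At 0 h, where the ranges of that sum did not overlap, Tlr1 differed by -0.04 and Tlr7 by 0.28 between KO and WT. The part of the subset in the differences at 16 h was not tested.

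**Figure D4:**
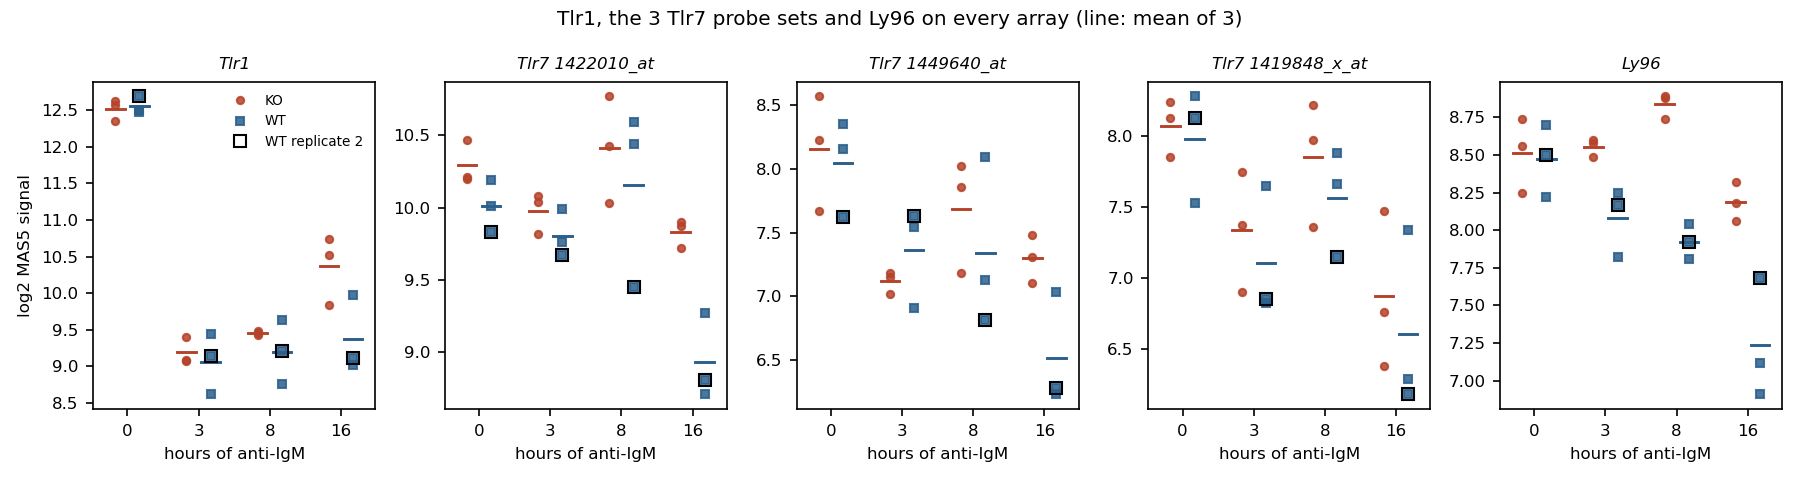
Log2 MAS5 signal (vertical axis) of Tlr1, the 3 Tlr7 probe sets and Ly96 on every array against hours of anti-IgM (horizontal axis), KO as circles left of WT as squares, means of 3 as lines and the male-type WT replicate 2 framed in black. The WT arrays of Ly96 lie below the KO arrays of the same time at 3, 8 and 16 h, and those of Tlr7 at 16 h do so in the panels of 1422010_at and 1449640_at.

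Ly96, or MD-2, the protein that holds lipopolysaccharide for TLR4, is not one of the 10 genes and was the single gene of the 4 pathway lists called between genotypes. In KO cells it read 8.74, 8.25 and 8.56 at 0 h, 8.49, 8.58 and 8.60 at 3 h, 8.89, 8.74 and 8.88 at 8 h, and 8.18, 8.32 and 8.06 at 16 h. In WT cells it read 8.22, 8.50 and 8.70 at 0 h, 7.82, 8.17 and 8.25 at 3 h, 7.81, 7.92 and 8.04 at 8 h, and 7.12, 7.68 and 6.91 at 16 h. The genotypes overlapped at 0 h and at no later time.

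Ly96 was higher in KO by 0.59 averaged over the 4 times (SE 0.0994, limma adjusted p = 0.00189), a call that held in all 35 alternatives with 0.55 to 0.66. This SE and p take the arrays as independent, and with the random replicate block the limma adjusted p was 0.0393. By time the difference was 0.04 at 0 h, 0.47 at 3 h, 0.91 at 8 h (limma adjusted p = 0.0986) and 0.95 at 16 h (SE 0.199, 1.93-fold, limma adjusted p = 0.0199). The call at 16 h held in 29 of 36 alternatives and was lost, for example, without WT replicate 3 at 16 h (0.79, limma adjusted p = 0.118) and without KO replicate 2 at 16 h (0.88, limma adjusted p = 0.118). From 0 h to 16 h Ly96 fell in WT (-1.24, limma adjusted p = 1.66e-05), and in KO the difference was -0.33 (95% interval -0.74 to 0.08, limma adjusted p = 0.224). The difference between these changes was 0.91 (SE 0.281, limma adjusted p = 0.646). Its partner Tlr4 differed by -0.09 between KO and WT at 16 h (95% interval -0.86 to 0.67). Macrophages express Ly96 as well. Of their 8 markers over the filter, Adgre1 was higher in KO at 16 h (1.18, limma adjusted p = 0.0191), where 0.615% of all genes were called. The part of such cells was not tested.

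The rest of the pathway was read on lists of partners, adaptors, brakes and transcription factors. At 16 h against 0 h, 19.4% of all genes were higher and 16.4% lower in KO, and 20.9% higher and 18.5% lower in WT, and the small counts below are to be read against these shares. Of 12 partners and further receptors tested, 0 rose and 2 fell by 16 h in KO, a share near that of all genes, and 0 rose and 5 fell in WT. Unc93b1, the chaperone that carries TLR3, TLR7 and TLR9 to endosomes, fell by 16 h in KO (-0.92, limma adjusted p = 8.8e-05) and in WT (-1.06, limma adjusted p = 1.29e-05). It was lowest at 3 h, at 10.88 ± 0.224 in KO and 11.11 ± 0.35 in WT (SD, n = 3 each), against 12.55 ± 0.0848 in KO and 12.71 ± 0.226 in WT at 0 h. Unc93b1 was chosen after its values were seen. Slc15a4, an endosomal transporter needed for TLR7 and TLR9 signalling, fell in KO (-1.37, limma adjusted p = 4.44e-09) and in WT (-1.56, limma adjusted p = 3.45e-10). Tlr12, a receptor for profilin, was called lower in WT with a mean under the filter level at 16 h (4.54 against 6.74 at 0 h), a call lost in 7 of 35 alternatives.

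Of 12 adaptors and kinases, 1 rose and 4 fell by 16 h in KO, and 3 rose and 3 fell in WT, which in WT is near the shares of all genes. Tab2, which links TRAF6 to the kinase TAK1, was lower in KO (-0.73, limma adjusted p = 3.53e-06) and in WT (-0.81, limma adjusted p = 6.34e-07), and so was the IKK kinase Ikbkb (-0.93 in KO, limma adjusted p = 1.1e-06, and -0.80 in WT, limma adjusted p = 7.4e-06). Ticam1, the adaptor TRIF used by TLR3 and TLR4, rose in WT (0.84, limma adjusted p = 0.00308) and had a difference of 0.45 in KO (limma adjusted p = 0.122). Irak1, a kinase recruited to MyD88, rose in WT (0.37, limma adjusted p = 0.0349, called in 28 of 36 alternatives) and had a difference of 0.11 in KO (limma adjusted p = 0.603).

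Of 5 brakes on the pathway, 0 rose and 1 fell in KO by 16 h, and 0 rose and 2 fell in WT, where the KO count is near the share of all genes. Irak3, an IRAK family member that restrains signalling, fell to 8.16 ± 0.283 in KO, against 10.32 ± 0.147 at 0 h, and to 7.93 ± 0.392 in WT, against 10.11 ± 0.0982 at 0 h (SD, n = 3 each). Sigirr, a decoy-like receptor, fell in WT (-0.84, limma adjusted p = 0.000947) and had a difference of -0.39 in KO (limma adjusted p = 0.127). Of 6 transcription factors, 1 rose, near the share of all genes, and 2 fell in each genotype. Rel, an NF-kB subunit, rose (1.78 in KO, limma adjusted p = 4.03e-06, and 1.41 in WT, limma adjusted p = 6.35e-05). Irf7 and Irf5, which carry TLR7 and TLR9 signals to interferon genes, fell, Irf7 by -1.95 in KO (limma adjusted p = 0.01) and -2.93 in WT (limma adjusted p = 0.000215), and Irf5 by -0.54 in KO (limma adjusted p = 0.0326) and -0.69 in WT (limma adjusted p = 0.00597). None of the lists' other genes was called between genotypes.

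The genes whose means over the 8 groups followed each of the 8 called genes most closely, after centring, were found over all genes tested, with the root mean square (RMS) difference over the 8 groups as the measure. Tlr1, whose centred means had an SD of 1.49, lay nearest to Slc46a3 (RMS 0.236), a solute carrier, and Zfr2 (RMS 0.258). Slc46a3 was lower at 16 h by -2.50 in KO and -3.18 in WT, against -2.15 and -3.19 for Tlr1. Ly86 lay nearest to Cd47 (RMS 0.043), the surface ligand of SIRP-alpha, and Zfp758 (RMS 0.056). Myd88 lay nearest to Nptn (RMS 0.0503) and Tcea1 (RMS 0.0504), Tlr7 to Nr2c1 (RMS 0.143) and Zfp688 (RMS 0.152), Tlr2 to Herc2 (RMS 0.103) and Arid5b (RMS 0.116), and Tlr4 to Faap20 (RMS 0.134) and Mrtfa (RMS 0.142). Tlr6 lay nearest to Tmem123 (RMS 0.153) and Vwa5a (RMS 0.16), and Tlr3, mostly under the filter level, to Plpp3 (RMS 0.356) and D830025C05Rik (RMS 0.509). The 8 means come from the same 24 arrays, so these distances describe likeness in this experiment.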

How the data were processed

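RNA of 24 samples was measured on 1 Affymetrix array each. The deposited values are log2 signals, computed by the authors with MAS5 per the submitters' processing notes, whose version is not given in the sources used here, and were used as deposited. Every array had a trimmed mean signal of 500, and 0.537% of values were 0. The offset planned for linear signals was not needed.

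Probe sets (45101, of which 64 are controls) were named from the platform's probe-to-gene table, in which 34945 non-control probe sets carry 1 symbol and 932 several, and 9160 are not listed. The filter asked for a signal over the array's own 40th percentile in at least 3 arrays, and the brightest one with a single symbol stood for each of 14318 genes.

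The model was fitted in R 4.3.3 with limma 3.58.1 (1 mean for each of the 8 groups, 16 residual and 6.79 prior degrees of freedom, eBayes with trend), with Benjamini-Hochberg adjustment over all genes and calls at 0.05. The fit was tested on simulated data with independent noise on each array. Such data cannot show what likeness between same-numbered arrays does to the calls. Intervals and standard errors (SE) are limma's. With 3 arrays in a group, their number sets the precision.

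The 10 genes, the pathway and marker lists and the comparisons were chosen with earlier results of these data known. The text names all 10 genes, for each gene called in a comparison the 2 tested genes with the smallest RMS distance, the pathway genes called between genotypes, and per pathway list the 2 highest and 2 lowest called genes of WT at 16 h against 0 h. The bound for signals under the filter level, Unc93b1 and the values of these genes at other times and of Irf5, Sigirr and marker genes were added after the values were seen.

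Alternatives were quantile normalization, scaling to a common median, leaving the filter off or setting it at the 60th percentile, testing each probe set separately, a fixed and a random replicate block, eBayes without trend, only the compared groups, low signals raised to the filter level, and each array left out. Leaving out the 4 male-type arrays of WT replicate 2 and the 2 arrays of highest background was chosen after seeing the data. The rule set for pairing asked that every correlation of same-numbered arrays exceed 0.1. It was not met, and the main fit took all arrays as independent, which the rule does not show them to be. Most arrays still correlated best with an array of their own number, as given below.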

Additional observations from a re-analysis of the deposited data

How the results depend on the processing

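Of 36 called differences of the 10 genes, 23 stayed called in every alternative run and none changed sign. Of 74 differences not called, 13 were called in at least 1 alternative and 35 changed sign in at least 1. With arrays scaled to a common median the median of all genes moved by 0.239 in WT and 0.148 in KO at 3 h, and by 0.158 in WT at 8 h, and with quantile normalization by 0.127 in WT at 3 h.

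With the replicate block, 1 of the 10 genes was called in KO minus WT averaged over the 4 times (Tlr7, 0.40, adjusted p = 0.0181) and 2 at 16 h (Tlr1, 1.00, adjusted p = 0.0427, and Tlr7, 0.90, adjusted p = 0.0127). It also called Cd180 lower at 3 h (-0.42 in KO, adjusted p = 0.00807, and -0.43 in WT, adjusted p = 0.00606) and at 8 h (-0.49 in KO, adjusted p = 0.00298, and -0.40 in WT, adjusted p = 0.0127). With the random replicate block none of the 10 genes was called between genotypes, and Cd180 in KO at 8 h (adjusted p = 0.0383), Tlr6 in KO at 3 h (adjusted p = 0.0463) and Tlr3 in KO at 16 h (adjusted p = 0.0455) were called lower. The correlation of same-numbered KO and WT arrays of the same time ran from 0.016 to 0.222, and over 0.1 in 3 of 12 pairs, while 11 of 12 KO arrays correlated best with the WT array of their own number. Between stimulated arrays and those at 0 h it ran from 0.064 to 0.17 in KO and from 0.02 to 0.121 in WT, over 0.1 in 5 and 3 of 9 pairs, and 9 of 9 arrays in each genotype correlated best with their own number. This, with the male-type signals on all 4 WT arrays of replicate 2, is a hint from the data that the numbers track samples. The design does not state it. The block moved no other count of the 10 by over 1.5 times.

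With each array left out in turn, the number of the 10 genes called ran from 0 to 1 in KO minus WT averaged over the 4 times and at 16 h, and was 0 throughout at 0, 3 and 8 h and in the F-test. In KO it ran from 5 to 6 at 3 h, from 4 to 6 at 8 h and from 4 to 7 at 16 h against 0 h, and in WT from 4 to 6 at 3 h, from 4 to 6 at 8 h and from 6 to 7 at 16 h. Without the 2 arrays of highest background Tlr2 was not called in KO at 16 h (-0.74, adjusted p = 0.0502), nor Myd88 (0.33, adjusted p = 0.068). The cause of these changes was not tested. All adjusted p-values are limma's.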
